A study of Mus musculus with 6 samples.

Results

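Psrc1, a gene of mouse chromosome 3, was examined together with the 9 genes Celsr2, Sort1, Psma5, Sypl2, Atxn7l2, Cyb561d1, Amigo1, Gpr61 and Gnai3 that lie beside it on the map. The 10 genes were represented by 25 probe sets that the platform annotation of 2016 assigns to 1 symbol alone, out of 18193 genes with such a probe set on the array. Psrc1 was the starting point because its rise was the largest of all tested probe sets in these same arrays, so its values are given as a description with no test. The other 9 genes were taken by their place on the map, with earlier results of these data known. They are not simply the nearest genes, since Mybphl and Sars lie nearer to Psrc1 than Gnai3 does and are not members. The RNA came from 32D cells, an IL-3-dependent line raised from C3H/HeJ bone marrow of a mouse infected with Friend leukemia virus. The mock group (3 samples) carried MSCVpuro, a retroviral vector with a puromycin marker, and the other group (3 samples) was transduced with the Nup98::Nsd1 fusion gene. Both groups share the line and the strain, and no label says whether each is 1 clone or a pool of transduced cells. The platform, 1 array a sample, was the Affymetrix Mouse Genome 430 2.0, which reports for every probe set a MAS5 signal (a scaled intensity on a linear scale) and a call of Present, Marginal or Absent.

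Psrc1, also known as DDA3, is a proline- and serine-rich protein that binds microtubules of the mitotic spindle and brings the depolymerising kinesin Kif2a to them, and its gene responds to the p53 family. In humans the PSRC1, CELSR2 and SORT1 genes also stand side by side, in a region known for variants linked to blood cholesterol. Sort1 encodes sortilin, a sorting receptor of the Golgi and endosomes, and Celsr2 a cadherin receptor of planar cell polarity. The remaining genes serve unrelated tasks. Psma5 is an alpha subunit of the 20S proteasome and Gnai3 an inhibitory G protein alpha subunit. Sypl2 is a synaptophysin-like protein of skeletal muscle, Amigo1 an adhesion protein of neurons, Gpr61 an orphan receptor, Cyb561d1 a cytochrome b561 family protein and Atxn7l2 a relative of ataxin-7.

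The RefSeq table of promoters (build GRCm38.p6) held 8 windows of 300 bases for 7 of the 10 genes, each running from 250 bases before to 50 bases after a transcription start. The windows of Psrc1, Psma5 and Celsr2 are shown because these genes gave 3 different readouts: Psrc1 was Present on the Nup98::Nsd1 arrays alone, Psma5 on every array at 2 of its 3 probe sets, and Celsr2 on no array. They lie at chr3:108383554-108383853 (plus strand), chr3:108256676-108256975 (plus strand) and chr3:108415530-108415829 (minus strand), and capitals mark matches on either strand to any of the motifs searched: CCAAT (the CCAAT box), TTTGAA (the CHR element of cell cycle genes), CACGTG (the E-box), GGGCGG (the GC box) and TATAAA (the TATA box).
Psrc1: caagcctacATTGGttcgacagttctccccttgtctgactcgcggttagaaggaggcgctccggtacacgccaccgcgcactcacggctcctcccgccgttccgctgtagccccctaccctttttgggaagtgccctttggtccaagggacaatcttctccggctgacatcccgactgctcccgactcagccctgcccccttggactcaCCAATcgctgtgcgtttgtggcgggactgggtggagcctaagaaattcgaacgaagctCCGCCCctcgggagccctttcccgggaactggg
Psma5: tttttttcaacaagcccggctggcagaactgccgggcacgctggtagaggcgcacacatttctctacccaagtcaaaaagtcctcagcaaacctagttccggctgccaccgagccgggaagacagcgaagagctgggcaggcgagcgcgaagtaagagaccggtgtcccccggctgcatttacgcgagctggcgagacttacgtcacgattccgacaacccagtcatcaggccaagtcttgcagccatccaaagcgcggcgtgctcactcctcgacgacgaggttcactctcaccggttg
Celsr2: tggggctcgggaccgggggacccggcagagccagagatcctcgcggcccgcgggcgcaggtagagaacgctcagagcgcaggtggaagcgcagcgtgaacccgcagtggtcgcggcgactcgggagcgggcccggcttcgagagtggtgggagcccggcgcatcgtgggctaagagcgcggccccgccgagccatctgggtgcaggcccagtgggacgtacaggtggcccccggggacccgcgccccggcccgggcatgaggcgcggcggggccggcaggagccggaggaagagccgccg
The Psrc1 window held 2 matches to CCAAT, 1 of them read on the opposite strand as ATTGG, and 1 match to GGGCGG on the opposite strand. A second Psrc1 window, for a start 34 bases further on, held 1 match to each. CCAAT occurred in 37.4% and GGGCGG in 35.7% of 32851 such windows of all genes. Neither the Psma5 nor the Celsr2 window held a match to any of the 5 motifs. TTTGAA was found in 1 of the 8 windows, that of Sypl2, against 17.9% of all windows, and CACGTG in 3, those of Gnai3, Amigo1 and Sypl2, against 7.15%. No other spelling of the CHR element was searched, so its absence from the Psrc1 windows is not shown. The GC content was 62.0% in the Psrc1 window, 59.0% in that of Psma5 and 76.3% in that of Celsr2, with a median of 52.7% over all windows. These matches describe letters in the windows shown and no binding was measured.

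The labels were checked first against cell type markers. Of 6 myeloid progenitor markers 5 were Present on all 6 arrays, and Kit was Present on none. The 5 general haematopoietic markers were Present on all 6 arrays, whereas no B cell, T cell, erythroid, hepatocyte, fibroblast or neuron marker was. Of 3 listed erythroid markers only 1 had a probe set of its own, and of 3 B cell markers 2. Of 3 neuron markers 1 was Present on every array of a group. Summed over the 5 haematopoietic markers, signals were 36906 to 39786 on mock and 53344 to 54028 on Nup98::Nsd1 arrays, and over the 6 progenitor markers 42887 to 45163 and 26914 to 27504. Sums over the other lists were between 2.82 and 195 per array. Between 45.1% and 45.9% of probe sets were Present on mock arrays and between 47.6% and 48.2% on Nup98::Nsd1 arrays. For Actb, the signal of the 3' control over that of the 5' control, a sign of RNA and labelling quality, was 1.148 to 1.202 on mock and 1.451 to 1.5002 on Nup98::Nsd1 arrays; its part in the results below was not tested. In bulk RNA, fewer cells of a type and less RNA per cell cannot be told apart. Precision is limited by having 3 arrays a group. No label states that replicates were separate cultures, so the p-values rest on a spread between samples that may be technical.

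Psrc1 was called Absent in mock cells and was detected in Nup98::Nsd1 cells. Its probe set 1417323_at gave signals of 11.2, 11.8 and 7.05 on the mock arrays, each called Absent, and of 2569, 2557 and 2498 on the Nup98::Nsd1 arrays, each called Present. The groups did not overlap. The mean went from 10.02 ± 2.58 to 2541 ± 37.7 (SD, n = 3 each), a log2 difference of 8.02. Because the mock signals carry no detectable level, the fold was bounded by raising each mock signal to the lowest signal called Present on its array where it lay below it. On mean log2 signals so bounded, Psrc1 was at least 241-fold higher in Nup98::Nsd1 cells on the scale of the deposited signals. The bound holds only for that floor, which is not a detection limit of this probe set. With 16 added to every signal the log2 difference was 6.62.

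The second probe set of Psrc1, 1425416_s_at, whose suffix marks probes shared by related transcripts, gave the same picture. Its mock signals were 5.25, 7.66 and 7.12, all Absent, against 1310, 1224 and 1355 in Nup98::Nsd1 cells, all Present. The mean went from 6.68 ± 1.26 to 1296 ± 66.6 (log2 difference 7.62), or at least 144-fold higher by the same floor. With 16 added to every signal the log2 difference was 5.85. These were the ranks 1 and 2 of all tested probe sets by rise, and the next, of Cp, stood at 6.71. The third probe set, 1451698_at, was designed from the same cDNA as the second and was dim on every array. It gave 28.9, 17.4 and 4.54 on the mock arrays and 52.3, 61.9 and 35.3 on the Nup98::Nsd1 arrays, where 2 of 3 calls were Present. Every Nup98::Nsd1 signal lay above every mock signal, but as 1 Nup98::Nsd1 call was Absent the probe set was not tested. The detection p-values behind the calls at 1417323_at were 0.601 to 0.823 on mock arrays and 0.000244 to 0.000732 on Nup98::Nsd1 arrays.

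**Figure D1:**
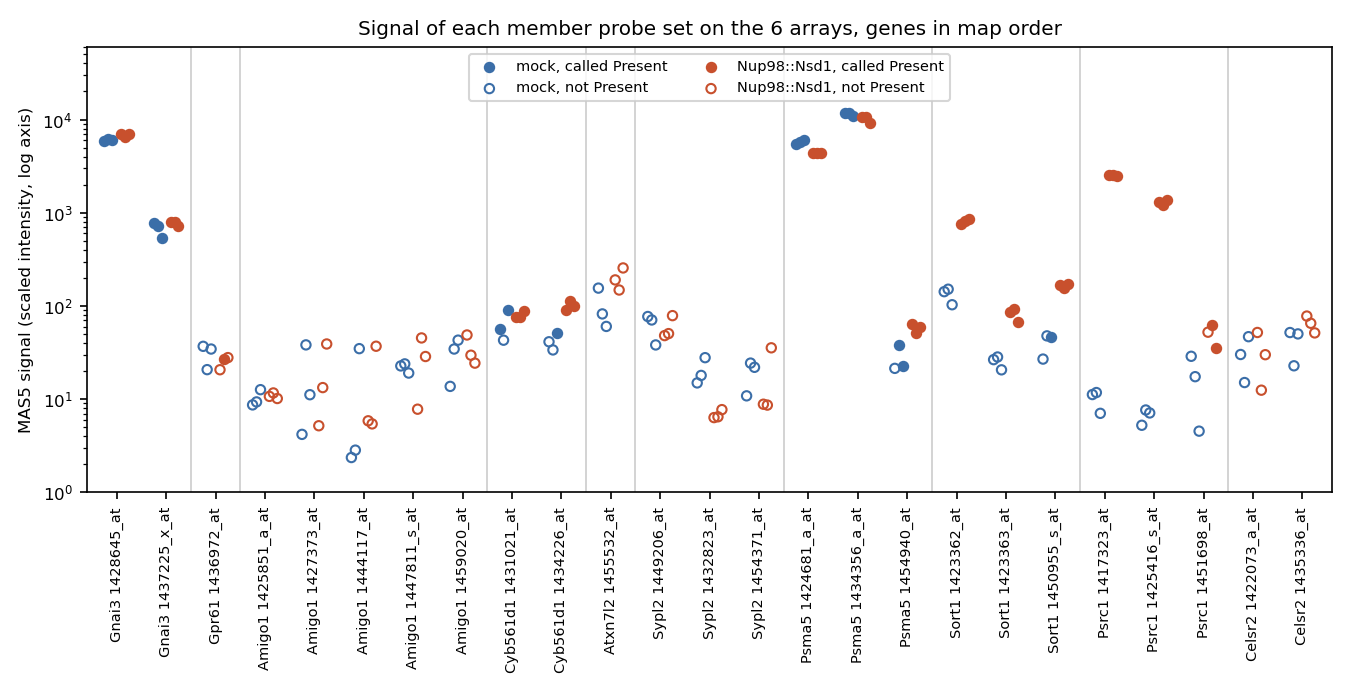
MAS5 signal (log axis) of each of the 25 member probe sets on each of the 6 arrays, with genes in map order from Gnai3 to Celsr2, mock arrays in blue and Nup98::Nsd1 arrays in red, filled points for Present calls and open points for Absent or Marginal calls. The Psrc1 probe sets 1417323_at and 1425416_s_at run from 5.25 to 11.8 on mock and from 1224 to 2569 on Nup98::Nsd1 arrays, while Gnai3 and 2 of the 3 Psma5 probe sets stay close together in both groups.

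The neighbours divided into 4 genes that were tested and 5 that were not. Testing required a Present call on every array of the mock group, the Nup98::Nsd1 group or both, and 10 of the 22 probe sets of the 9 neighbours met this. Of these 10, limma called 6 higher and 2 lower in Nup98::Nsd1 cells at an adjusted p under 0.05. Over all 20494 tested probe sets 69.9% were called, 42.3% higher and 27.6% lower, and the median log2 difference was 0.15. Nothing is read from the members' count against that background, since 6 of the 10 were not Present on all mock arrays and so passed the filter only through the Nup98::Nsd1 arrays.

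Sort1, the nearest tested gene before Psrc1 on the map, rose at each of its 3 probe sets. At 1423362_at the mock signals were 142, 151 and 103, all called Absent, and the Nup98::Nsd1 signals 752, 824 and 848, all Present. With no mock array Present, the level was at least 6.18-fold higher, by the same bound as for Psrc1 (132 ± 25.7 to 808 ± 50.1, n = 3 each, log2 difference 2.63, SE 0.14, adjusted p = 2.25e-08). Every Nup98::Nsd1 array was thus far above every mock array. The bound raised none of these mock signals, so it equals the fitted fold. At 1450955_s_at the signals were 26.9, 47.8 and 47.0 against 169, 154 and 172 (log2 difference 2.07, SE 0.26, adjusted p = 2.21e-05), with 1 mock array called Present. At 1423363_at they were 26.6, 28.4 and 20.7, all Absent, against 85.8, 93.8 and 67.7, all Present, or at least 3.27-fold higher (fitted log2 difference 1.71, SE 0.30, adjusted p = 0.000317). The 3 Sort1 probe sets share 1 source sequence, so they are not independent measurements of the gene. Between Sort1 and Psrc1 the map holds Mybphl, a myosin-binding protein-like gene whose only probe set was Absent on all 6 arrays.

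Celsr2, the neighbour on the other side, was not detected in either group. Its 2 probe sets were Absent on all 6 arrays. Signals at 1435336_at were 51.9, 22.8 and 50.2 on mock and 78.0, 65.2 and 51.4 on Nup98::Nsd1 arrays, and the groups overlapped. Those at 1422073_a_at were 30.2, 15.1 and 46.8 against 52.0, 12.5 and 30.02, and overlapped as well.

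Psma5, which stands just before Sort1, gave differences of opposite sign at different probe sets. Its signals at 1424681_a_at were 5424, 5761 and 6103 on mock arrays and 4421, 4429 and 4416 on Nup98::Nsd1 arrays, with no overlap. The probe set fell by 0.38 on the log2 scale (SE 0.047, adjusted p = 2.07e-05). At 1434356_a_at the signals were 11675, 11802 and 10930 against 10597, 10520 and 9169, a fall by 0.19 (SE 0.058, adjusted p = 0.0127) that no longer passed after quantile normalization (adjusted p = 0.0546), without an intensity trend (0.0727), without mock replicate 2 (0.0566) or without Nup98::Nsd1 replicate 3 (0.0511). The third, 1454940_at, rose from 21.4, 38.3 and 22.9 to 64.6, 51.7 and 59.1 (log2 difference 1.13, SE 0.34, adjusted p = 0.0111). That rise was not called after quantile normalization (adjusted p = 0.059), with scaling to the hybridization controls (0.0737) or with no filter on detection (0.0757). The probe sets of this gene thus do not share a direction.

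Gnai3, the farthest of the members, stayed near the middle of all tested probe sets as deposited, and its value depended on the scaling. At 1428645_at the signals were 5860, 6166 and 6052 on mock and 7040, 6458 and 6978 on Nup98::Nsd1 arrays, which did not overlap. As deposited this was a rise of 0.18 on the log2 scale (SE 0.045, adjusted p = 0.00391). Quantile normalization raised it to 0.32 (adjusted p = 2.34e-05), when the median of all tested genes was 0.01. Hybridization control scaling turned it to a called fall of -0.19 (adjusted p = 0.00343). Median centring left 0.0097 and 75th percentile centring -0.017, neither called. At 1437225_x_at, whose suffix marks probes that can cross-hybridise, the groups overlapped and the log2 difference was 0.19 (95% interval -0.064 to 0.45, adjusted p = 0.161). Without mock replicate 1 it was 0.29 and called (adjusted p = 0.0435), and without mock replicate 3 it was 0.035 (0.716).

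Cyb561d1 gave 1 called rise and 1 difference that was not called. At 1434226_at the signals were 41.3, 33.8 and 51.9, Present on 1 mock array, against 89.9, 112 and 98.8, Present on all Nup98::Nsd1 arrays, a rise of 2.40-fold (log2 difference 1.26, SE 0.26, adjusted p = 0.000928). At 1431021_at they were 57.2, 42.9 and 91.1 against 75.2, 76.2 and 87.7, and mock replicate 3 lay above every Nup98::Nsd1 array. The log2 difference there was 0.39 with a 95% interval from -0.25 to 1.03 (adjusted p = 0.25), and this value rests on single arrays and on the scaling. It was 0.68 without mock replicate 3 (adjusted p = 0.0494), 0.14 without mock replicate 2 (0.682) and 0.0021 after quantile normalization (0.995).

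The remaining 4 neighbours had no tested probe set. Amigo1 was Absent on all 6 arrays at its 5 probe sets, with group means between 10.2 and 34.3. Sypl2 was likewise Absent at its 3 probe sets. At 1432823_at its signals were 15.0, 18.0 and 27.9 on mock and 6.35, 6.48 and 7.73 on Nup98::Nsd1 arrays, a separation among Absent calls for which no fold is given. Atxn7l2 was Absent throughout, at 155, 82.2 and 60.3 against 190, 148 and 256, and its groups overlapped. Gpr61 was Present on Nup98::Nsd1 replicate 2 alone, at 27.03, with mock signals of 20.8 to 36.9 around that value.

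**Figure D2:**
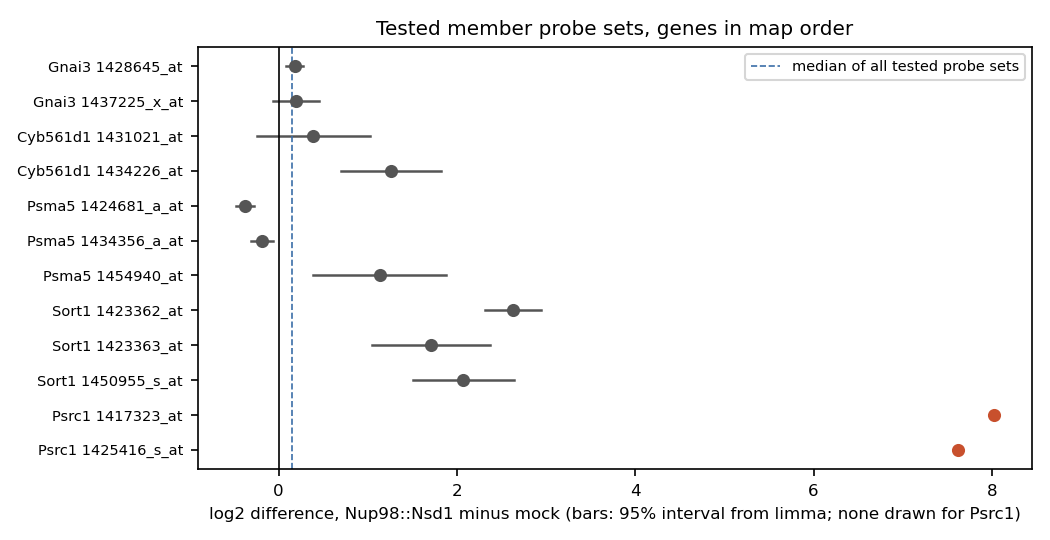
Log2 difference, Nup98::Nsd1 minus mock, of the 12 tested member probe sets in map order, with bars for the 95% interval of limma and none for Psrc1, which was chosen for its rise. Psrc1 stands at 7.62 and 8.02 and Sort1 at 1.71 to 2.63, while Gnai3 and 2 of the 3 Psma5 probe sets lie between -0.38 and 0.19, around the dashed median of 0.15.

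The next question was how far along the map such differences reached. The 25 genes on each side of Psrc1 in the RefSeq gene table comprised 35 with a probe set, of which 17 were tested by the probe set with the highest mean signal. Of these, 13 were higher and 3 lower, against 42.9% higher and 29.5% lower among all 9641 tested genes. With hybridization control scaling the counts were 6 and 4, when 2036 of all tested genes were higher and 4861 lower. With 75th percentile centring they were 9 and 3, when 2922 were higher and 3947 lower. Rises of at least 2-fold numbered 5 and falls of at least 2-fold 0, against 9.53% and 2.6% of all tested genes. The risers were Sort1, Gstm2, Gstm1, Gstm4 and Sars. The median log2 difference of the 17 genes was 0.40, against 0.12 over all tested genes. Hybridization control scaling gave 0.036 (all genes -0.25), median centring 0.23 (-0.054) and 75th percentile centring 0.21 (-0.081).

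Sars, the cytosolic seryl-tRNA synthetase and the nearest tested gene beyond Celsr2, was 3.50-fold higher. Its signals were 3058, 3244 and 3397 on mock and 11375, 11181 and 11402 on Nup98::Nsd1 arrays, Present on all (log2 difference 1.81, SE 0.045, adjusted p = 8.84e-11), and its other tested probe set stood at 2.00. On the opposite side lie genes of glutathione S-transferases of the mu class, enzymes that conjugate glutathione to electrophiles. Gstm2, Present on 1 mock array, rose 6.54-fold (46.2 ± 6.66 to 303 ± 47.7, adjusted p = 2.14e-07). Gstm1 rose 4.55-fold (291 ± 16.6 to 1324 ± 87.2, adjusted p = 1.31e-09) and Gstm4 2.05-fold (417 ± 38.7 to 856 ± 68.9, adjusted p = 1.18e-06). The Gstm genes are close copies of each other, so probes of one could read another, and how their values divide among them is uncertain. Gstm4 fell short of 2-fold under each of the 4 other scalings.

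Rises of many genes ran along much of chromosome 3. Of its 459 tested genes 286 were higher and 87 lower, and 89 (19.4%) rose at least 2-fold, against 9.04% of the 9182 tested genes elsewhere. With hybridization control scaling 45 did, when 4.39% of all tested genes did. The median log2 difference was 0.41, against 0.10 for genes elsewhere. Its distance from the median of all tested genes was 0.30, and 0.16 with no filter on detection. Chromosome 7 alone had a higher median as deposited, 0.43, and the 18 others lay between -0.063 and 0.23. After quantile normalization the medians were 0.35 for chromosome 3 and 0.28 for chromosome 7. With hybridization control scaling they were 0.048 and 0.066, against -0.25 for all genes. Chromosomes 3 and 7 held the ranks 1 and 2 among 20 as deposited and after quantile normalization. The other scalings shift all genes of an array alike, so they cannot change the ranks. Of the 12 largest rises among all tested genes 6 were on chromosome 3, which holds 4.76% of these genes. The Psrc1 region itself was chosen from that list.

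**Figure D3:**
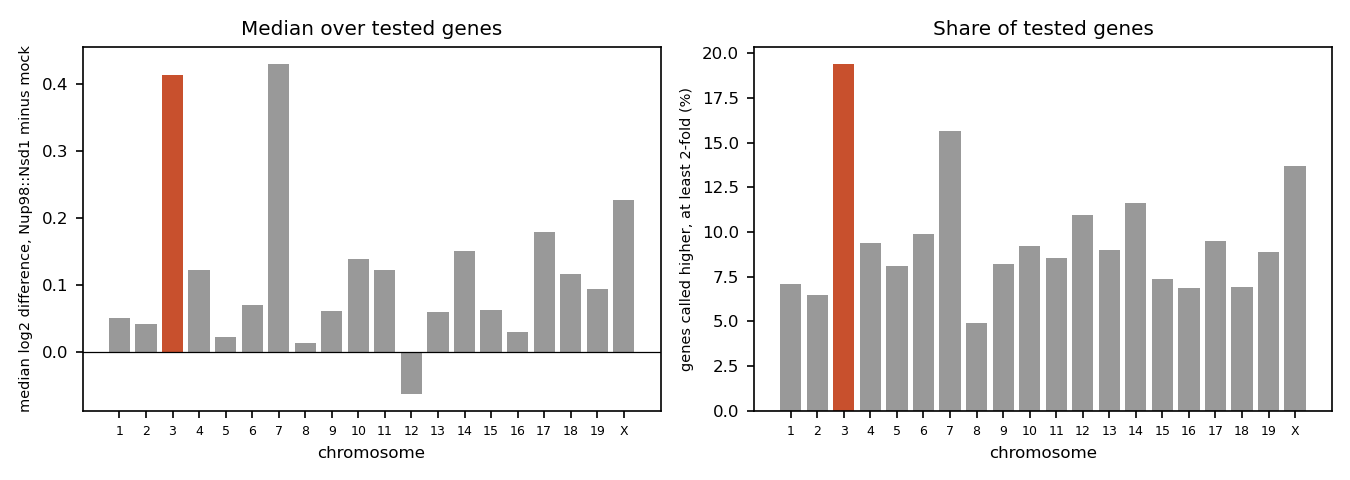
Bars give, for chromosomes 1 to 19 and X, the median log2 difference of tested genes (left) and the percentage of tested genes called higher by at least 2-fold (right), with chromosome 3 in red. Chromosomes 3 and 7 stand above the others, at medians of 0.41 and 0.43 and at 19.4% and 15.7%.

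The differences were not even along the chromosome. In map order the 459 genes were divided into 9 blocks of 51, a division made after the values had been seen. The first block, from Pex2 to Dcun1d1, had a median log2 difference of 0.90, and the second 0.43. The third, from Mbnl1 to Iqgap3, stood at -0.039. Blocks 4 to 7 stood at 0.50, 0.69, 0.56 and 0.52, and blocks 8 and 9 at 0.013 and 0.0097. Psrc1 lies in block 7, from Ptpn22 to A930005H10Rik. As deposited 38 of its 51 genes were higher and 7 lower, beside 42.9% higher and 29.5% lower among all tested genes. Without Psrc1 the median of that block was 0.47. Of its 50 other genes 12 rose at least 2-fold, against 9.53% of all tested genes. The median deviation from the mock mean over block 7 was 0.49 to 0.53 on the 3 Nup98::Nsd1 arrays. On the 3 mock arrays it was -0.0033 to 0.025, near 0 by construction because that mean was taken over them. Relative to the median of all tested genes, block 7 lay 0.40 higher and block 8 lay 0.10 lower. For block 7 this distance was 0.40 after quantile normalization, 0.37 with no filter on detection and 0.31 with Present on all 6 arrays. The other scalings shift all genes of an array alike, so they cannot change it. Read by the tested probe set with the highest mean, Psrc1, at 8.02, and Sort1, at 2.63, stood above a block whose middle was about 0.5. Gnai3, Cyb561d1 and Psma5 stood below it. The dimmer probe sets 1434226_at of Cyb561d1 (1.26) and 1454940_at of Psma5 (1.13) stood above it.

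**Figure D4:**
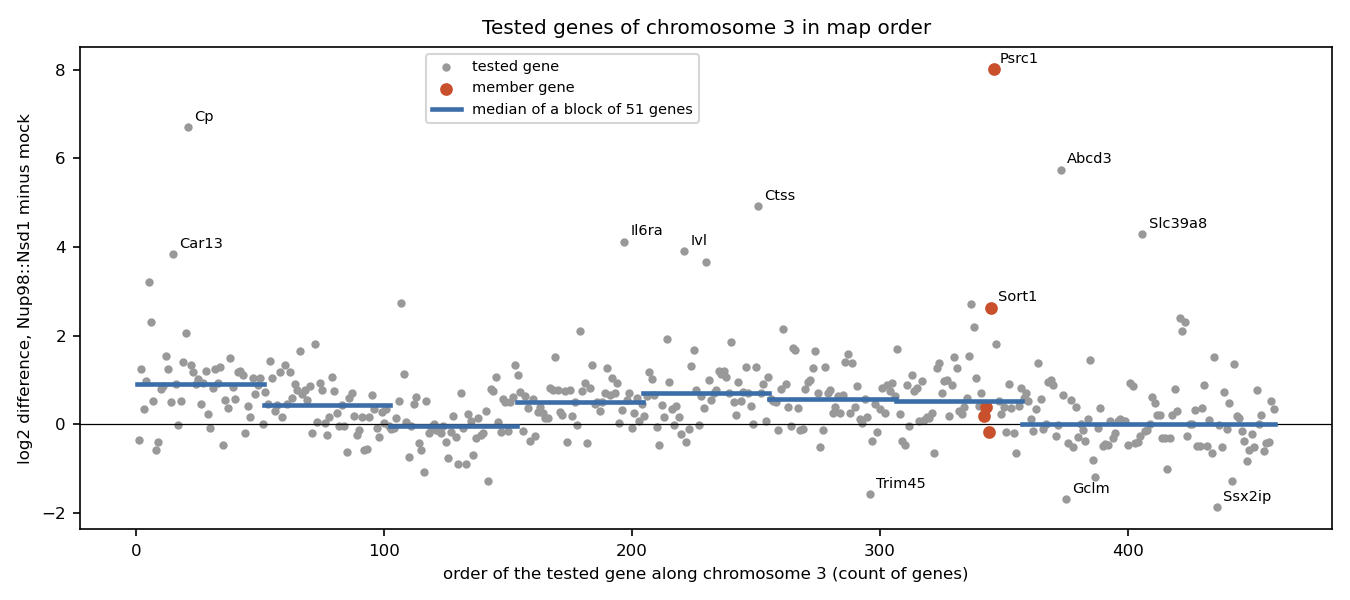
Log2 difference, Nup98::Nsd1 minus mock, of the 459 tested genes of chromosome 3 by their order on the map, with the 5 tested members in red and the median of each block of 51 genes as a blue line. The line is near 0.90 at the start, near 0 in the third block and in the last 2, and between 0.50 and 0.69 from the fourth to the seventh, where Psrc1 and Sort1 lie.

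Genes with the largest rises were spread over these blocks. The genes named here were picked by the size of their difference in the same fit, so their adjusted p adds no support. The risers among them passed the detection filter only through the Nup98::Nsd1 arrays. Cp, the copper-carrying ferroxidase ceruloplasmin, lies in block 1 and rose at least 69.9-fold, and Car13, a carbonic anhydrase of the same block, Present on 1 mock array, rose 14.4-fold (53.9 ± 7.40 to 771 ± 34.2, adjusted p = 1.22e-09). Il6ra, the interleukin-6 receptor alpha chain in block 4, rose at least 13.02-fold (9.27 ± 5.49 to 144 ± 18.5, adjusted p = 6.23e-06). In block 5 were Ctss, the protease cathepsin S, and Ivl, a protein of the epidermal envelope. Ivl was Present on no mock array, at 5.45, 26.2 and 30.03, and rose to 260, 278 and 203 (adjusted p = 4.29e-05). Abcd3, a transporter of the peroxisome, and Slc39a8, a zinc and manganese importer, rose 53.7-fold and 19.6-fold although block 8, which holds both, had a median near 0. The largest falls on the chromosome were those of Ssx2ip, a centrosome protein (3.67-fold lower, 1400.04 ± 83.7 to 381 ± 9.50, adjusted p = 1.44e-09), Gclm, the modifier subunit of glutamate-cysteine ligase (3.25-fold lower, adjusted p = 1.26e-10), and Trim45 (3.01-fold lower, adjusted p = 9.75e-09).

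Genes with a pattern most like that of Psrc1 were sought among the 277 other genes with a probe set Absent on all mock and Present on all Nup98::Nsd1 arrays. Likeness was the Euclidean distance of the 6 log2 signals from those of 1417323_at, a description that depends on how brightly each probe set responds. The nearest gene was Cp, at a distance of 3.87, with signals of 3.93, 7.23 and 7.52 on mock and 667, 636 and 585 on Nup98::Nsd1 arrays. Ctss followed at 5.24, then Avil, which encodes the actin-binding advillin, at 5.36, Clec5a, a myeloid lectin receptor, at 5.37, and Hcar2, a receptor for hydroxybutyrate and niacin, at 5.46. The median distance of the 277 genes was 8.66. Of these genes 21 (7.58%) lie on chromosome 3.

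The listed partners of Psrc1 included genes that rose and genes that fell. Of 17 listed microtubule and p53 partners 13 were tested, and 7 rose and 3 fell, with a median log2 difference of 0.20, beside 42.9% higher and 29.5% lower among all tested genes. Centring on the 75th percentile gave 3 and 5, on the median 4 and 5, and hybridization control scaling 3 and 7, so the list has no direction that holds under every scaling. Kif2a, the kinesin that Psrc1 brings to the spindle in human cells, was 1.32-fold lower (2375 ± 47.2 to 1793 ± 61.6, adjusted p = 1.22e-05). Ckap5, a microtubule polymerase, rose 1.68-fold (1214 ± 4.39 to 2038 ± 33.3, adjusted p = 7.32e-08), Kif18b, a kinesin of astral microtubules, 1.61-fold (adjusted p = 3.89e-07) and Hmmr, a spindle assembly factor, also 1.61-fold (adjusted p = 1.08e-07).

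Few partners of sortilin could be tested. Of 13 listed 3 were, and 2 rose and 1 fell, with a median of 0.39. Among all tested genes 42.9% rose and 29.5% fell. With hybridization control scaling 1 rose and 1 fell, with a median of 0.029, when 2036 of 9641 genes rose and 4861 fell. Grn, the progranulin that sortilin takes up, rose 2.15-fold, from 5744, 5661 and 6084 to 12452, 12661 and 12419 (adjusted p = 1.37e-09). Psap, the lysosomal prosaposin, rose 1.31-fold (adjusted p = 3.48e-06) and stood at 0.029 on the log2 scale with hybridization control scaling, no longer called. Lrpap1, a chaperone of lipoprotein receptors, fell by 0.12 on the log2 scale (adjusted p = 0.0429), but not after quantile normalization (-0.064, adjusted p = 0.264). Of 8 listed relatives and planar polarity partners of Celsr2 1 was tested, Dvl2, an adaptor of Wnt signalling, and it was not called (log2 difference 0.075, 95% interval -0.12 to 0.27). Its sign turned under each of the 4 other scalings, and hybridization control scaling called it lower (-0.29, adjusted p = 0.0289).

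The 14 listed subunits of the 20S proteasome, Psma5 not among them, were all tested. Of 14, 8 fell and 3 rose, with a median log2 difference of -0.41, when 29.5% of all tested genes fell and 42.9% rose. With hybridization control scaling, when 4861 of 9641 genes fell, 13 fell and 0 rose, and after quantile normalization, when 3196 fell, 8 fell and 5 rose. Psmb3 was 2.00-fold lower (8026 ± 337 to 4007 ± 118, adjusted p = 5.42e-09), Psmb2 1.64-fold, Psma2 1.62-fold and Psma7 1.46-fold lower. Of 13 listed G protein alpha subunits and their regulators 8 were tested, and 7 rose and 0 fell, against 3 and 1 with hybridization control scaling. Of all tested genes 42.9% rose as deposited and 2036 of 9641 with that scaling. The list's median was 0.46 as deposited and 0.098 with that scaling. Rgs1, which shortens signals of inhibitory G proteins, rose 6.84-fold, from 328, 303 and 311 to 2176, 2142 and 2123 (adjusted p = 5.39e-11). Gpsm3, a guanine nucleotide dissociation regulator, rose 1.83-fold, the regulator Rgs2 1.73-fold and Gna13 1.39-fold, the last at 0.11 and not called with hybridization control scaling.

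Relatives of the other 5 neighbours went in both directions. Of 12 listed 7 were tested, and 4 rose and 2 fell, against 3 and 2 with hybridization control scaling, beside 42.9% higher and 29.5% lower among all tested genes. The median was 0.52 as deposited and 0.16 with that scaling. Cyb561a3, a lysosomal cytochrome b561 protein, rose 2.27-fold (972 ± 65.3 to 2202 ± 56.6, adjusted p = 1.32e-08), while its relative Cyb561d2 was 1.83-fold lower (867 ± 44.2 to 475 ± 32.5, adjusted p = 1.45e-06). Atxn7, a subunit of the SAGA complex, rose 1.94-fold (adjusted p = 1.81e-06), and Sypl, a vesicle protein, was 1.44-fold lower (adjusted p = 4.97e-07).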

How the data were processed

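RNA of 3 mock and 3 Nup98::Nsd1 samples was measured on 1 array each. Per the file headers, the authors deposited for each probe set a MAS5 signal, a scaled intensity on a linear scale, with a detection p-value and call, but the MAS5 version and scaling target are not stated in these sources. The deposited matrix held the same intensity values within a relative difference of 5.0e-06. Of 45101 probe sets 64 controls were left out; 34945 had 1 symbol, 932 several and 9160 none, and 34741 were matched to RefSeq genes (GRCm38.p6), which also gave the map order.

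Signals under 1 were set to 1, and groups were compared on the log2 scale with limma 3.58.1 in R 4.3.3, with an intensity trend and Benjamini and Hochberg's adjustment over 20494 probe sets. Probe sets Present on every array of either group were tested, and genes were read by the tested probe set with the highest mean. The members and lists were chosen with earlier results of these data known. Named were all members, the 4 largest differences among the 25 genes on each side, the 8 largest rises and 3 largest falls on chromosome 3, the 5 genes nearest to Psrc1, and the up to 4 genes of each list with the smallest p, an order set after values were seen. The largest rises on chromosome 3 include Psrc1. Where a gene was named for its difference or its p, the adjusted p adds no support beyond the fit that picked it. Same-numbered arrays of the groups did not deviate together (r = -0.017, -0.0111 and 0.0212). The fit was tested on simulated data of 20494 probe sets with 50 changes per size: it recovered 44% at a log2 change of 0.5, 78% at 1, 96% at 2 and 100% at 4, and 3.64% of calls were false.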

Additional observations from a re-analysis of the deposited data

Results flagged for a closer look

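The Psrc1 probe set 1451698_at was outside the tests, since it was not Present on all 3 arrays of a group. Its mean signal in Nup98::Nsd1 cells was 49.9 ± 13.5, above 16.9 ± 12.2 in mock cells (n = 3 each), and all 3 Nup98::Nsd1 signals lay above all 3 mock signals. The difference was not tested.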

How the results depend on the processing

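The alternatives were a pseudocount of 16, testing every probe set, testing those Present on all 6 arrays, normalization by quantiles, centring by 75th percentile or by median, scaling to 18 hybridization control probe sets, the deposited matrix, no intensity trend, array weights, the replicate number as a block, leaving out each array and, for chromosome 3, averaging over the tested probe sets of each gene. The 8 called neighbour probe sets became 3 with the filter of Present on all 6 arrays, which by construction gives no value for Psrc1, Sort1, Cyb561d1 and the Psma5 probe set 1454940_at, and 7 to 9 with 1 array left out. Gnai3 turned to -0.017 and -0.0038 with 75th percentile centring and to -0.19 (called) and -0.17 with hybridization control scaling. After quantile normalization its probe set 1428645_at stood at 0.32 (called). Sort1 stayed called under each alternative in which it was tested, at log2 differences of 2.26 to 2.74 for 1423362_at. Psrc1 at 1417323_at ranged from 6.62, with the pseudocount of 16, to 8.16.

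The median of chromosome 3 was 0.30 with no filter, 0.38 with Present on all 6 arrays, 0.35 after quantile normalization, 0.22 and 0.24 with 75th percentile and median centring, 0.048 with hybridization control scaling, and 0.39 to 0.42 with 1 array left out. Its distance from the median of all tested genes, 0.30 as deposited, was 0.16 with no filter, 0.34 after quantile normalization and 0.28 to 0.30 with 1 array left out. Genes of chromosome 3 at least 2-fold higher numbered 45 with hybridization control scaling, when 4.39% of all tested genes were. With the replicate number as a block 14257 rather than 14335 probe sets were called, the members' 8 calls were as many, and the samples share only a number. Low signals called Absent limit what can be said of Celsr2, Amigo1, Sypl2, Atxn7l2 and Gpr61.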
